A study of Mus musculus with 550 samples.

Results

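The brain transcriptome of mice that had received a single high dose of dimethyl fumarate (DMF) was compared with that of mice given vehicle, 6 h after dosing. The comparison comprised 16 of the 550 arrays of the series. They were taken as the brain arrays of that time whose titles named DMF at 179.2 mg/kg (8 arrays, animals 67 to 74) or the vehicle (8 arrays, animals 51 to 58). All animals were C57BL/6 mice, and both groups were dosed once. Treated mice received DMF at 179.2 mg/kg, and vehicle mice received hydroxypropyl methylcellulose alone. Age, sex and route of dosing are not given in the labels. Brain arrays of the same time from mice given DMF at 100 mg/kg, monoethyl fumarate (MEF) salts at 79.2 mg/kg or both (8 arrays each), and the 46 brain arrays of 12 h, entered the same fit. The 12 h arrays came from mice given the same treatments (vehicle, either DMF dose, MEF salts, or DMF at 100 mg/kg with MEF) and from mice labelled naive. Levels are log2 summaries of Affymetrix probe sets in RNA of brain tissue, with 1 array per animal, so only differences within a gene were read.

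DMF is the methyl diester of fumaric acid and is used in the treatment of multiple sclerosis and psoriasis. It and its metabolite monomethyl fumarate react with thiols, including cysteines of KEAP1, the adaptor that marks the transcription factor NRF2 for degradation. Freed NRF2 binds antioxidant response elements (AREs) and induces enzymes of quinone detoxification, glutathione synthesis, NADPH supply and iron storage. Monomethyl fumarate also activates the nicotinic acid receptor HCAR2. In brain, immediate early genes such as Egr2, Fos and Arc follow recent synaptic activity.

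Some arrays and an order in the animal numbers stood apart from the dosing groups. Of 3 measured cerebellum markers, Gabra6 and Cbln3, which mark granule cells, were at or near their lowest values on most arrays of both groups, while Pcp2, of Purkinje cells, was 9.07 to 9.58 on DMF arrays and 8.90 to 9.23 on vehicle arrays. Gabra6 reached 6.08 on DMF animal 72, against 6.61 and 9.80 on vehicle animals 51 and 58, and Cbln3 reached 7.37 on DMF animal 72, against 8.54 and 11.25 on the same vehicle animals. Levels of many genes also moved with the place of the animal number in successive runs of 12. Of 17097 genes, 4122 (24.1 percent) were related to place on the 40 brain arrays of 6 h at an adjusted p below 0.05. Vehicle animals held places 1 to 8 and DMF animals places 5 to 12, so the groups shared only places 5 to 8. Neuron markers such as Snap25 (13.3 to 13.4 on DMF arrays and 13.2 to 13.4 on vehicle arrays), astrocyte markers such as Gja1 and oligodendrocyte markers such as Mbp were high in both groups. Slc1a3 was below 3 on every 6 h array. In whole-tissue RNA, fewer cells of a type and less RNA per cell cannot be told apart.

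At the higher DMF dose, 1231 of 17097 genes (7.20 percent) were called, that is, had an adjusted p below 0.05 in limma's test. Of these, 959 (5.61 percent of all genes) were higher and 272 (1.59 percent) were lower with DMF than with vehicle. The changes were small. The median log2 change was 0.28 among genes called higher and -0.24 among those called lower. Only 2 called genes were at least 1 log2 unit higher with DMF (Aox1 and Slc11a1) and 3 at least 1 unit lower (Egr2, Tra2b and 4930480K15Rik). The largest fall, of 4930480K15Rik (-1.27), was -0.14 within shared places and not called there or with place in the fit (adjusted p = 1 and 0.341). A further quantile normalization left 867 calls (5.07 percent of all genes) and turned the split to 408 higher and 459 lower. With place in the fit as a line and a curve 124 genes were called (88 higher, 36 lower, 0.725 percent of all genes), and 119 of these were among the 1231. The 4 arrays of each group at shared places gave 26 calls (0.152 percent, 17 higher and 9 lower). Without the 3 arrays of these DMF and vehicle animals with Gabra6 above 5, 144 genes were called (0.842 percent, 116 higher and 28 lower). When place was fitted as well, 30 were called. Arrays of the other groups in the fit were not screened by Gabra6. With place in the fit the median change of the 959 genes called higher was 0.19 and that of the 272 called lower was -0.18. Leaving out single arrays gave between 492 calls (without DMF animal 74) and 1910 (without vehicle animal 55), with 806 and 600 without DMF animals 69 and 73, and 569, 745 and 791 without vehicle animals 51, 52 and 53. The levels of DMF and vehicle arrays did not overlap for 90 genes higher with DMF (0.526 percent of all genes) and 28 lower (0.164 percent).

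**Figure D1:**
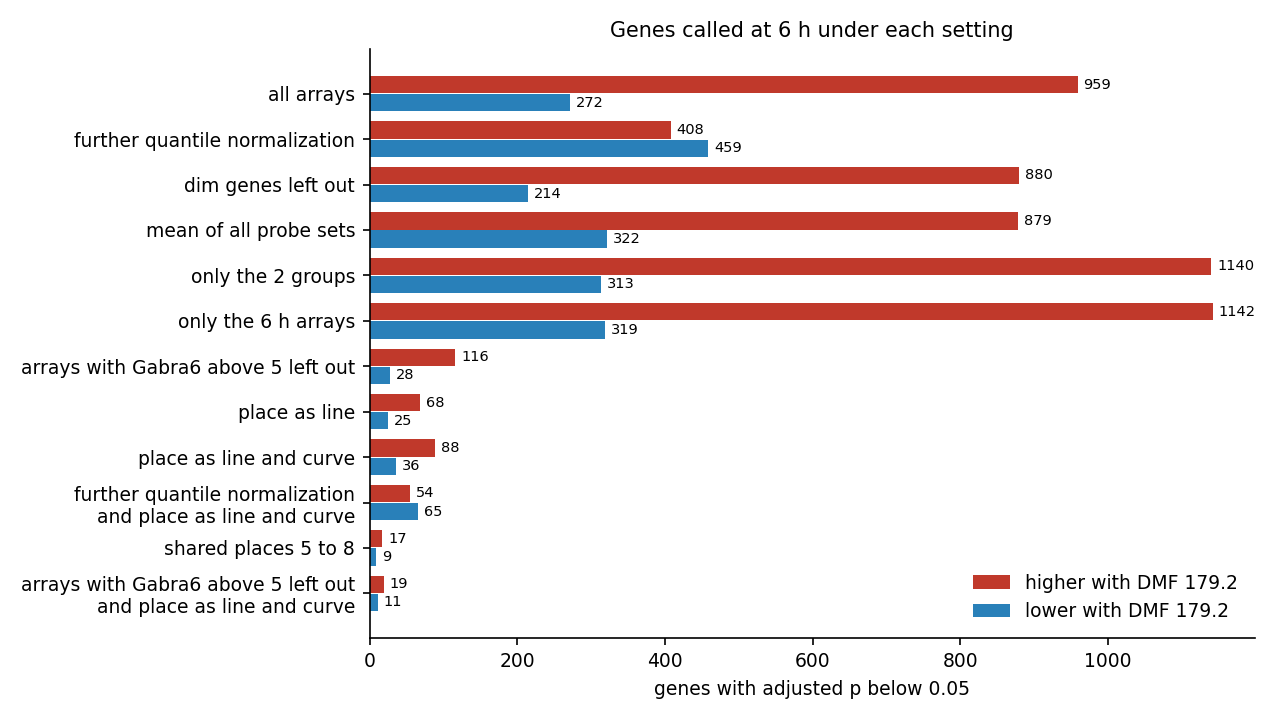
Number of genes called (adjusted p below 0.05) at 6 h for DMF 179.2 mg/kg against vehicle, higher (red) and lower (blue), under 12 settings of the fit. The counts fall to 88 higher and 36 lower with place as a line and a curve, and to 17 and 9 within shared places.

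Aox1, aldehyde oxidase, which oxidizes aldehydes and N-heterocycles and is a known NRF2 target, had the smallest adjusted p of all genes. Its log2 level was 8.47, 8.37, 8.59, 8.43, 8.32, 8.80, 8.79 and 8.62 on the arrays of DMF animals 67 to 74, against 7.57, 7.40, 7.63, 7.31, 7.66, 7.26, 7.45 and 7.37 on those of vehicle animals 51 to 58. Every DMF array lay above every vehicle array. The group levels were 8.55 ± 0.18 with DMF and 7.46 ± 0.15 with vehicle (SD, n = 8 each), a difference of 1.09 ± 0.11 log2 units (SE) or 2.13-fold (adjusted p = 3.89e-11). The difference was 1.07 with place in the fit and 1.03 within shared places, both called, and it was called in each of the 16 fits that left out 1 array. With DMF at 100 mg/kg the level was 8.01 ± 0.19 (SD, n = 8), a difference from the same vehicle arrays of 0.55 (adjusted p = 0.0247), and with DMF and MEF the difference was 0.81.

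Aox1 led the NRF2 target genes. Of 28 measured members of a list of 30, 7 rose (Aox1, Abcc4, Nqo1, Pgd, Me1, Gsta4 and Ftl1) and 0 fell. This is 25 percent called, against 7.20 percent of all genes, and the median change over the list was 0.11, against 0.01 over all genes. This list and those below were chosen with earlier results of these data known. The choice may therefore partly set such differences from all genes. Aox1 and Me1 were still called with place in the fit, where the list median was 0.07, and without the arrays with Gabra6 above 5, and only Aox1 was called within shared places. Me1, Gsta4 and Ftl1 lie outside the naming rule and were chosen after their values were seen. Nqo1, the quinone reductase, was 7.67, 7.80, 7.69, 7.97, 8.05, 8.12, 7.77 and 8.0 with DMF, against 7.40, 7.44, 7.35, 7.41, 7.45, 7.57, 7.34 and 7.66 with vehicle. The lowest DMF array lay just above the highest vehicle array. Its change was 0.43 ± 0.14 (adjusted p = 0.0419). With place in the fit it was 0.36 (adjusted p = 0.231), and it was called in only 6 of the 16 fits that left out 1 array. Me1, cytosolic malic enzyme and a source of NADPH, averaged 9.33 ± 0.12 with DMF and 9.05 ± 0.15 with vehicle, a change of 0.28 ± 0.06 (adjusted p = 0.00521, and 0.0054 with place). Pgd, of the pentose phosphate pathway, changed by 0.39 ± 0.09, Gsta4, a glutathione transferase for lipid peroxidation products, by 0.25 ± 0.06 and Abcc4, an exporter of conjugates, by 0.43 ± 0.10. Ftl1, ferritin light chain, was higher on all 8 DMF arrays than on any vehicle array, with 11.29 ± 0.03 and 11.08 ± 0.08 (adjusted p = 0.0431).

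Other NRF2 targets did not pass the test. Cbr3, carbonyl reductase, came nearest with 7.51 ± 0.18 in DMF brains and 7.22 ± 0.24 in vehicle brains (change 0.29 ± 0.10, adjusted p = 0.0545). For Hmox1, heme oxygenase, the change was 0.20 with a 95 percent interval of -0.04 to 0.44. Both subunits of glutamate-cysteine ligase were near 0, Gclc at -0.06 (interval -0.24 to 0.13) and Gclm at -0.03 (-0.17 to 0.11). The thioredoxin system gave 0.08 (-0.0033 to 0.16) for Txnrd1, thioredoxin reductase, and -0.08 (-0.19 to 0.02) for Srxn1, sulfiredoxin. Slc7a11, the cystine importer, was at -0.08 (-0.49 to 0.34). Osgin1 and Akr1b8 were low on all arrays and changed by 0.03 and 0.07.

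**Figure D2:**
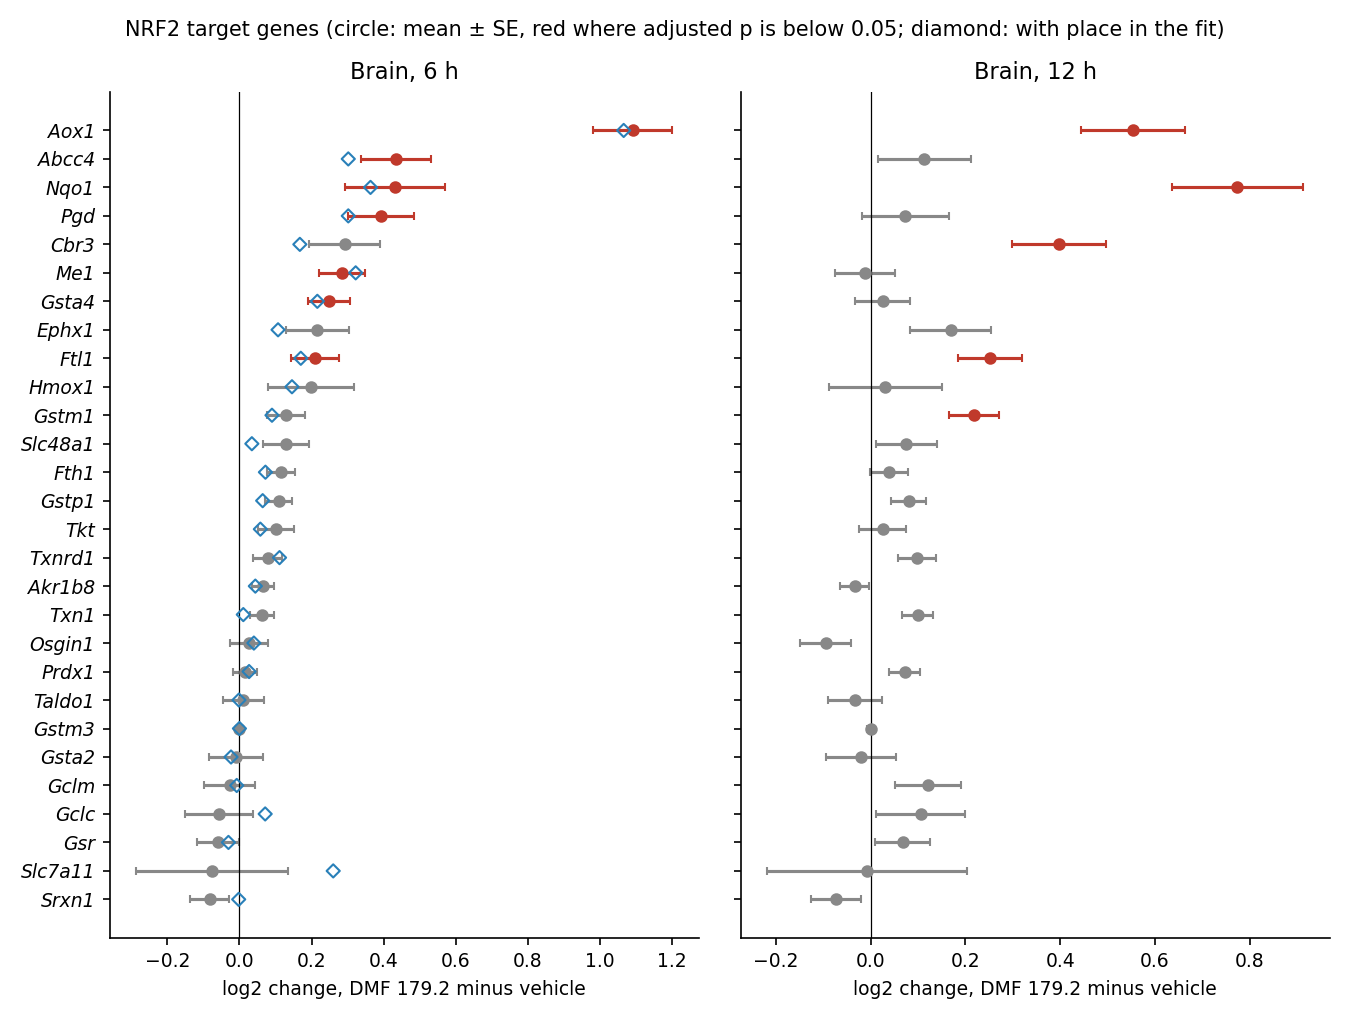
Log2 change (DMF 179.2 mg/kg minus vehicle, circles with SE) of the 28 measured NRF2 target genes in brain at 6 h (left) and 12 h (right). Red circles have an adjusted p below 0.05 and diamonds give the 6 h change with place in the fit. At 6 h, 7 members are red and Aox1 stands far to the right.

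The regions around the gene starts of Aox1, Nqo1 and Me1 are shown because Aox1 led the response, Nqo1 is the usual marker of NRF2 activity and Me1 was the other list member still called with place. The RefSeq sequences (GRCm38.p6) run from 250 bases before to 50 after the start, and capitals mark matches to the ARE core TGACNNNGC on either strand. The windows are chr1:58029719-58030018 on the plus strand for Aox1, chr8:107403156-107403455 on the minus strand for Nqo1 and chr9:86695865-86696164 on the minus strand for Me1, the first of 2 entries.
Aox1: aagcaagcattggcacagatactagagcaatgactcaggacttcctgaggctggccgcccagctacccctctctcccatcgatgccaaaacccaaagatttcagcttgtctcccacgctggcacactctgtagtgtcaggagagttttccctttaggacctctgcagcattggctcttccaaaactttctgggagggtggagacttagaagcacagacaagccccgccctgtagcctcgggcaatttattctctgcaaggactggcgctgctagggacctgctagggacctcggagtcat
Nqo1: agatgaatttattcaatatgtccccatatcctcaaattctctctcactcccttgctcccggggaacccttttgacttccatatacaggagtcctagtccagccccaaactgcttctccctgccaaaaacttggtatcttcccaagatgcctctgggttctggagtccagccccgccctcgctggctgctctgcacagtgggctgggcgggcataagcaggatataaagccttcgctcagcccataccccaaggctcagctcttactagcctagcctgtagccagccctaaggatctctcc
Me1: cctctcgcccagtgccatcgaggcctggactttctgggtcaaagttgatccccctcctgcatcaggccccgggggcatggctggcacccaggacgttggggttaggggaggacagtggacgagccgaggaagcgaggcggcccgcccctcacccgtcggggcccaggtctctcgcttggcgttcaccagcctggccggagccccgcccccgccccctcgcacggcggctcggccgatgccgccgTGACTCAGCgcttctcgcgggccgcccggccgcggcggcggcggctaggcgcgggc
The core stood in the Me1 window, where it starts 6 bases before the gene start, and in neither of the others. Counted by gene, with a match in any of its windows, 13.99 percent of 27025 genes held it (12.4 percent of all 32851 windows). Of 23 NRF2 list members with a window 7 held it, as did 3 of the 6 called members among them (Abcc4, Pgd and Me1). The E-box CACGTG, bound by clock factors, was held by 8.09 percent of genes and the heat shock element GAANNTTC by 9.04 percent. Among the 23 list members the E-box was in Abcc4 and the heat shock element in Cbr3. The matches are a description of these windows, and sequence further from the gene starts was not searched.

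The immediate early genes Egr2 and Fos fell. Egr2, a zinc-finger transcription factor, was 7.12, 6.74, 6.86, 6.27, 5.84, 6.46, 6.83 and 6.73 on the DMF arrays, against 7.92, 7.89, 7.69, 8.27, 7.96, 7.81, 8.34 and 7.05 on the vehicle arrays. The lowest vehicle array, of animal 58, lay among the DMF values and the other 7 above all of them. The change was -1.26 ± 0.24 (adjusted p = 0.000809) and -1.33 (0.00315) with place. Fos, a subunit of AP-1, was 9.52, 8.99, 8.88, 8.65, 8.72, 8.24, 8.86 and 9.37 with DMF, against 9.47, 9.35, 9.81, 10.24, 9.47, 9.82, 10.21 and 9.78 with vehicle. The groups overlapped at the upper end of the DMF values. The change was -0.86 ± 0.25 (adjusted p = 0.0249), and -1.01 with place (0.0495). Without the arrays with Gabra6 above 5, the adjusted p was 0.00242 for Egr2 and 0.115 for Fos. Within shared places the changes were -1.04 for Egr2 and -0.81 for Fos, and neither was called (adjusted p = 0.33 and 0.675). Jun, the partner of Fos, fell by 0.20 on the log2 scale (adjusted p = 0.0168, and 0.13 with place).

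These were 3 of 22 measured immediate early genes (13.6 percent called, all lower, against 1.59 percent of all genes called lower), with a list median of -0.05. Arc (0.10), Nr4a1 (0.08), Fosb (-0.23), Egr1 (-0.11), Junb (-0.01) and Dusp1 (-0.13) did not pass the test, and Npas4 was at its lowest value on 39 of the 40 arrays. Of 12 measured late activity-regulated genes 0 were called by limma, and 1 had an unadjusted p below 0.05. Egr2 was also low in both groups that received MEF. Its change from the same vehicle arrays was -1.16 with MEF salts and -1.41 with DMF and MEF, both called, and -0.44 with DMF 100 mg/kg (adjusted p = 0.856).

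**Figure D3:**
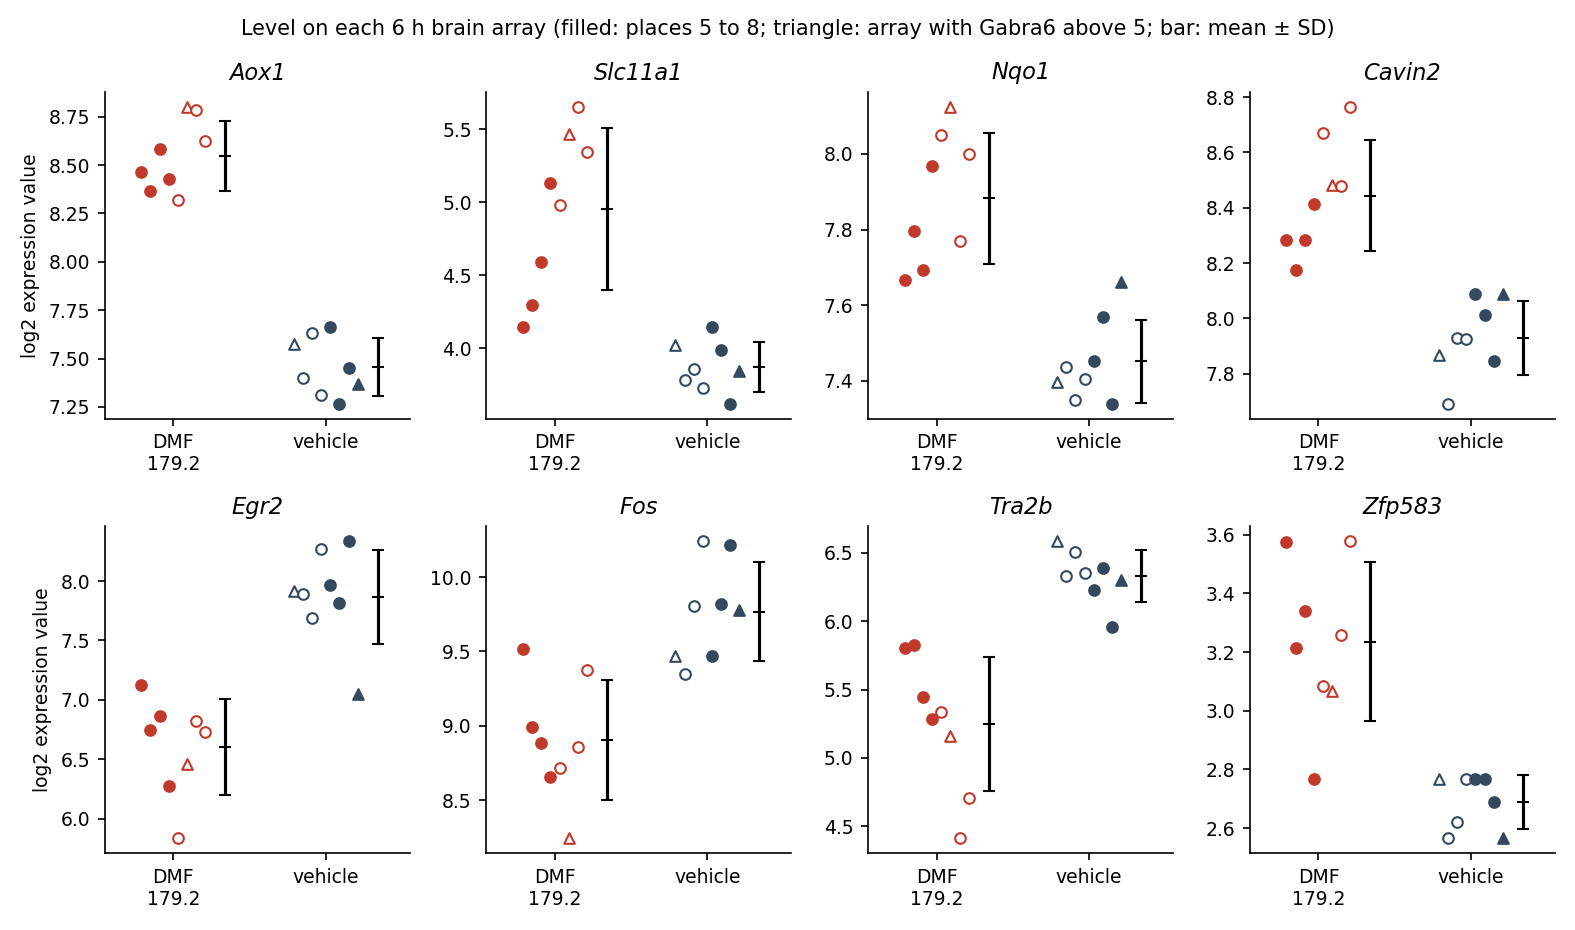
Log2 level of 8 genes on each 6 h brain array, DMF 179.2 mg/kg (red, left) and vehicle (dark, right). Filled symbols are animals at places 5 to 8, triangles the arrays with Gabra6 above 5, and bars the mean ± SD of 8 arrays. Aox1, Slc11a1, Nqo1 and Cavin2 do not overlap upward and Tra2b downward, while Egr2, Fos and Zfp583 overlap by 1 or more arrays.

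Slc11a1, the divalent metal transporter of macrophage phagosomes (also called NRAMP1), rose about as much as Aox1. This gene lies outside the naming rule and was chosen after its values were seen. It was 4.15, 4.30, 4.59, 5.14, 4.98, 5.47, 5.65 and 5.35 with DMF, against 4.02, 3.78, 3.86, 3.72, 4.14, 3.99, 3.62 and 3.84 with vehicle. The lowest DMF value lay just above the highest vehicle value, and within the DMF group the 4 arrays at places 9 to 12 (5.36 ± 0.29) lay higher than most of those at places 5 to 8 (4.54 ± 0.44, SD, n = 4 each). The change was 1.08 ± 0.13 (adjusted p = 3.97e-08), 0.93 with place and 0.65 within shared places (adjusted p = 0.0837). Of 6 microglial markers measured 0 were called (2 at an unadjusted p below 0.05), and their summed level was 9.54 to 9.77 with DMF and 9.41 to 9.91 with vehicle. Changes of single microglial markers ran from -0.49 for Cx3cr1 to 0.22 for Aif1. The neutrophil markers S100a8 and S100a9 were present, with a summed list level of 6.78 to 8.10 in DMF brains and 6.45 to 7.45 in vehicle brains, and 0 of 5 were called (1 at an unadjusted p below 0.05). Their part in the Slc11a1 result was not tested.

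Few calls held across these fits. In the fit of all arrays, with place and within shared places, 16 genes were called, 11 higher and 5 lower, and 8 of them had a mean brain level below 3, near the lowest values the arrays give. When the arrays with Gabra6 above 5 were also left out and place kept, 8 remained: Aox1, Zfp583, Srpk3, Hcrtr1 and Itgax higher, and Xpo4, Rrad and Ctsm lower. All but Aox1 were chosen after their values were seen. Srpk3, an X-linked kinase of splicing factors, averaged 6.89 ± 0.13 with DMF and 6.41 ± 0.25 with vehicle (change 0.48 ± 0.07, adjusted p = 8.99e-06), with no overlap, but of its 3 probe sets only 1 was higher with DMF, and the lowest changed by -0.11. Xpo4, a nuclear transport receptor, was 5.43, 5.57, 5.84, 5.94, 5.92, 5.61, 5.23 and 5.52 with DMF, against 6.21, 5.94, 5.94, 6.12, 5.94, 6.06, 5.98 and 6.04 with vehicle (change -0.39 ± 0.06). The value 5.94 recurs on 20 of the 40 arrays, and of the 4 Xpo4 probe sets 3 were lower with DMF. Zfp583, a zinc-finger gene, ranged from 2.77 to 3.58 with DMF and from 2.56 to 2.77 with vehicle (change 0.55 ± 0.06), and Rrad, a Ras-related GTPase, averaged 3.06 ± 0.22 with DMF and 3.45 ± 0.22 with vehicle. Hcrtr1, the orexin receptor, stayed at 2.76 on every vehicle array and reached 2.76 to 3.67 with DMF. Itgax, an integrin of myeloid cells, and Ctsm changed by 0.21 and -0.19 at levels of about 2 to 3.

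The other 8 of the 16 were Arvcf, a catenin (0.36), Mettl27 (0.43), Srbd1 (0.45), Plekhg2 (0.43), the cytokine Tslp (0.16) and the chemokine Ccl3 (0.12) higher, and Myo15 (-0.08) and the stress factor Atf3 (-0.06) lower. For Atf3, 30 of the 40 arrays had 2.13, the lowest value given, so its call rests on small differences at that level.

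Among genes above the median level, 12 were named as the highest. Cavin2, a caveola coat protein, was 8.29, 8.18, 8.28, 8.41, 8.67, 8.48, 8.48 and 8.76 with DMF, against 7.87, 7.69, 7.93, 7.92, 8.09, 8.01, 7.85 and 8.09 with vehicle. The groups did not overlap, and the change was 0.51 ± 0.09 (adjusted p = 0.000394, and 0.00504 with place). Within shared places it was 0.28 and not called (adjusted p = 0.683), and of its 3 probe sets 1 went the other way, by -0.15. Kctd21, a substrate adaptor of cullin 3, averaged 8.06 ± 0.19 with DMF and 7.50 ± 0.21 with vehicle (change 0.56 ± 0.10, adjusted p = 0.00373 with place). Fbxw4, an F-box protein (0.50, adjusted p = 0.0226 with place), Atp13a5, a P-type ATPase (0.56, 0.0396 with place), and Zfp97 (0.53, 0.0406 with place) also stayed called with place, but not within shared places. Slco1a4, an organic anion transporter of brain endothelium, was the only cell type marker called (0.32 ± 0.07, adjusted p = 0.00413, and 0.0779 with place). The other 4 measured endothelial markers were not called.

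The remaining 6 highest genes lost their calls with place. Polrmt, the mitochondrial RNA polymerase, averaged 7.76 ± 0.36 with DMF and 7.0 ± 0.37 with vehicle (change 0.76 ± 0.18, and 0.47 with place, adjusted p = 0.0663). Within the vehicle group it was 6.69 ± 0.13 at places 1 to 4 and 7.30 ± 0.24 at places 5 to 8 (SD, n = 4 each), and in DMF brains it was 7.56 ± 0.33 at places 5 to 8. The DMF difference at those shared places was 0.26. Abhd4, a lipase of N-acyl phospholipids (0.59), Klhdc8a (0.54), Syn3, a synapsin (0.53), Btaf1, which removes TATA-binding protein from DNA (0.52), and Pcnx2 (0.51) had adjusted p-values of 0.0749 to 0.118 with place.

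The lowest genes above the median level included, beside Egr2 and Fos, 10 genes that were all related to place at 6 h. The relation was called for 8 of the 12 highest genes and not for Aox1, Cavin2, Klhdc8a or Fbxw4. Tra2b, a splicing regulator with a mean brain level below the median gene, was 5.80, 5.83, 5.45, 5.28, 5.33, 5.16, 4.41 and 4.71 on DMF arrays, in order of place from 5 to 12, against 6.58, 6.33, 6.51, 6.35, 6.23, 6.39, 5.96 and 6.30 on vehicle arrays, from place 1 to 8. The groups did not overlap. The change was -1.08 ± 0.34 (adjusted p = 0.0349) and -0.49 with place (0.0707). Kcnma1, the large-conductance potassium channel, averaged 9.67 ± 0.55 with DMF and 10.52 ± 0.25 with vehicle (change -0.84), and -0.27 with place (adjusted p = 0.148). In DMF brains it was 10.11 ± 0.24 at places 5 to 8 and 9.24 ± 0.37 at places 9 to 12, and in vehicle brains 10.33 ± 0.05 at places 5 to 8. Zfp280d changed by -0.84 and kept its call with place (-0.45, adjusted p = 0.0212). The others lost it: Rbm12b1, an RNA-binding protein (-0.91), Cbl, a ubiquitin ligase (-0.82), Rgs7bp, which anchors RGS7 (-0.78), Plppr5 (-0.77), Gmps, GMP synthetase (-0.74), Pde1a, a calmodulin-dependent phosphodiesterase (-0.70), Vldlr, a reelin receptor (-0.69), and Strbp (-0.67). With place their changes ranged from -0.35 to -0.23. These values are of the brightest probe set of a gene. Another probe set was higher with DMF for Rbm12b1 (0.32), Strbp (0.28), Gmps (0.22), Vldlr (0.18), Zfp280d (0.11) and Plppr5 (0.10).

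**Figure D4:**
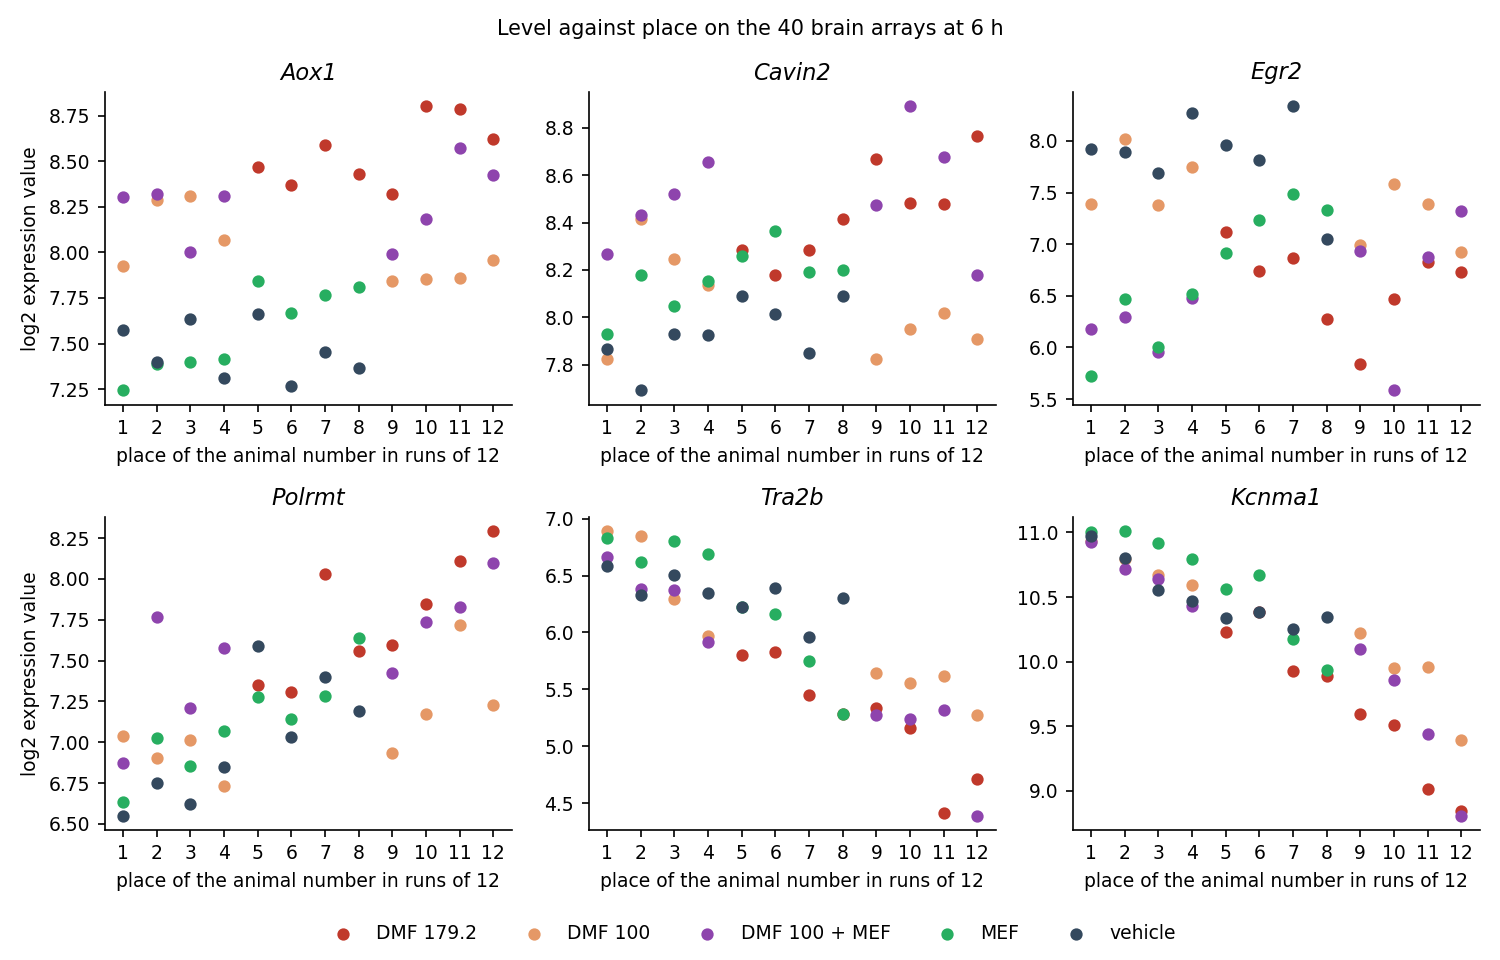
Log2 level of 6 genes on the 40 brain arrays of 6 h against the place of the animal number in runs of 12, by treatment. Polrmt rises and Tra2b and Kcnma1 fall along place in several treatments, while for Aox1 the DMF 179.2 mg/kg arrays lie above vehicle at every shared place.

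The other lists are read against 7.20 percent of all genes called. Splicing and cold-inducible RNA-binding genes had 0 higher and 3 lower of 19 (15.8 percent, Tra2b, Rbm12b1 and Luc7l3, with Luc7l3 at -0.28), and 0 of either with place. Mitochondrial respiratory chain genes had 2 higher of 20 (10 percent), Ndufb8 (0.08) and Ndufa1 (0.21), and 0 called after a further quantile normalization. The list median was 0.06, against 0.01 over all genes. Of all 8548 genes above the median level, 666 were called higher. ATF4 stress response genes had 2 higher, the amino acid enzyme Asns (0.23) and Trib3 (0.06), and 2 lower, Vldlr and Atf3, of 16 (25 percent). Heat shock genes had 1 of 11, the co-chaperone Dnaja1 (0.13). Fatty acid and ketone metabolism genes had Acadl, an acyl-CoA dehydrogenase, higher (0.23) and Ucp3 lower (-0.25), of 11 (18.2 percent). Cholesterol synthesis genes had Lss higher (0.37) of 16, interferon response genes Ifit2 (0.31) of 13, inflammatory NF-kB genes Ccl3 of 16, and circadian clock genes Bhlhe40 lower (-0.24) of 15. With place, of these lists only Ccl3 and Atf3 were still called.

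Glucocorticoid response genes (21 measured), zinc response genes (4), hypoxia genes (15), p53 target genes (11), neuropeptide genes (15) and glucose and nicotinic acid sensing genes (5) had 0 called by limma. The counts at an unadjusted p below 0.05 were 2, 0, 3, 3, 2 and 0 in that order. Fkbp5, a glucocorticoid target, changed by -0.13 (interval -0.40 to 0.14), Per1, a clock and glucocorticoid target, by -0.02 (-0.24 to 0.20) and Mt1, metallothionein, by 0.08 (-0.03 to 0.20). Hcar2, the receptor for monomethyl fumarate, was at the lowest value on 34 of the 40 arrays. Of the marker lists, those for neurons (8 measured), astrocytes (7), oligodendrocytes (5), microglia (6), choroid plexus (8), pituitary (5), erythroid cells (3), neutrophils (5), lymphocytes (5), meningeal fibroblasts (5), striatum (3), cerebellum (3), olfactory bulb (4) and thalamus (3) had 0 called by limma. At an unadjusted p below 0.05 there were 2 for neurons, 1 for astrocytes, 2 for microglia, 1 for neutrophils and 0 for the other lists. Cerebellum markers had a median change of -1.03, and their summed level was 9.10 to 9.96 in DMF brains and 8.98 to 11.94 in vehicle brains.

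Whether the DMF effect differed between 12 h and 6 h was tested as the difference of the effects, each against vehicle of its own time (8 DMF and 8 vehicle arrays at 12 h). It was called for 191 genes (1.12 percent), 46 with a more positive effect at 12 h and 145 with a more negative one, and for 521 with place in the fit. After a further quantile normalization 148 were called, 77 more positive and 71 more negative. Slc11a1 had 3.42 ± 0.22 with DMF and 3.35 ± 0.08 with vehicle at 12 h, and its effect was 1.01 log2 units smaller than at 6 h (difference -1.01 ± 0.19, adjusted p = 0.00248). The Aox1 effect at 12 h was 0.55 ± 0.11 (called), and its difference from 6 h of -0.54 missed the threshold (adjusted p = 0.06). Nqo1 had an effect of 0.77 ± 0.14 at 12 h (adjusted p = 0.000757), and the difference from 6 h of 0.34 ± 0.20 was not called (0.42). At 12 h 5 NRF2 list members were called higher (Nqo1, Aox1, Cbr3, Ftl1 and Gstm1), where 0.597 percent of all genes were.

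Of genes above the median level, the most negative differences were those of Apold1, an endothelial early response gene (-0.82), Dusp1, a MAP kinase phosphatase (-0.81), Hsd17b11 (-0.77), Olig2, an oligodendrocyte lineage factor (-0.76), and Hunk (-0.64). Dusp1 averaged 10.86 ± 0.16 with DMF and 10.99 ± 0.16 with vehicle at 6 h, against 10.35 ± 0.12 with DMF and 11.29 ± 0.20 with vehicle at 12 h. Hsd17b11 was called higher at 6 h (0.41) and lower at 12 h (-0.36). The most positive were Ccdc30 (0.88), the clock gene Per2 (0.69), Mical2 (0.65), Ppip5k1 (0.51) and Irf2 (0.50). Of the 6 Ccdc30 probe sets only 3 went the way of the tested one at 6 h, with changes from -0.79 to 0.32. Per2 was 7.60 ± 0.31 with DMF and 6.99 ± 0.25 with vehicle at 12 h, while at 6 h its change was -0.07. All 10 differences stayed called with place. Marker lists had 0 members called at 12 h. Their median 12 h changes included 0.50 for striatum, -0.51 for olfactory bulb, -0.29 for oligodendrocytes, 0.27 for choroid plexus and -1.15 for cerebellum. The same lists had 6 h medians of 0.14, 0.08, 0.08, 0.07 and -1.03. Neurons and astrocytes had -0.01 each at 12 h. The part of tissue composition in the time differences was not tested. At 12 h 5 immediate early genes were called lower, among them Arc (-1.36), Nr4a1 (-0.90) and Dusp1, where 0.714 percent of all genes were, and neither Egr2 (-0.18) nor Fos (-0.84, adjusted p = 0.0687).

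**Figure D5:**
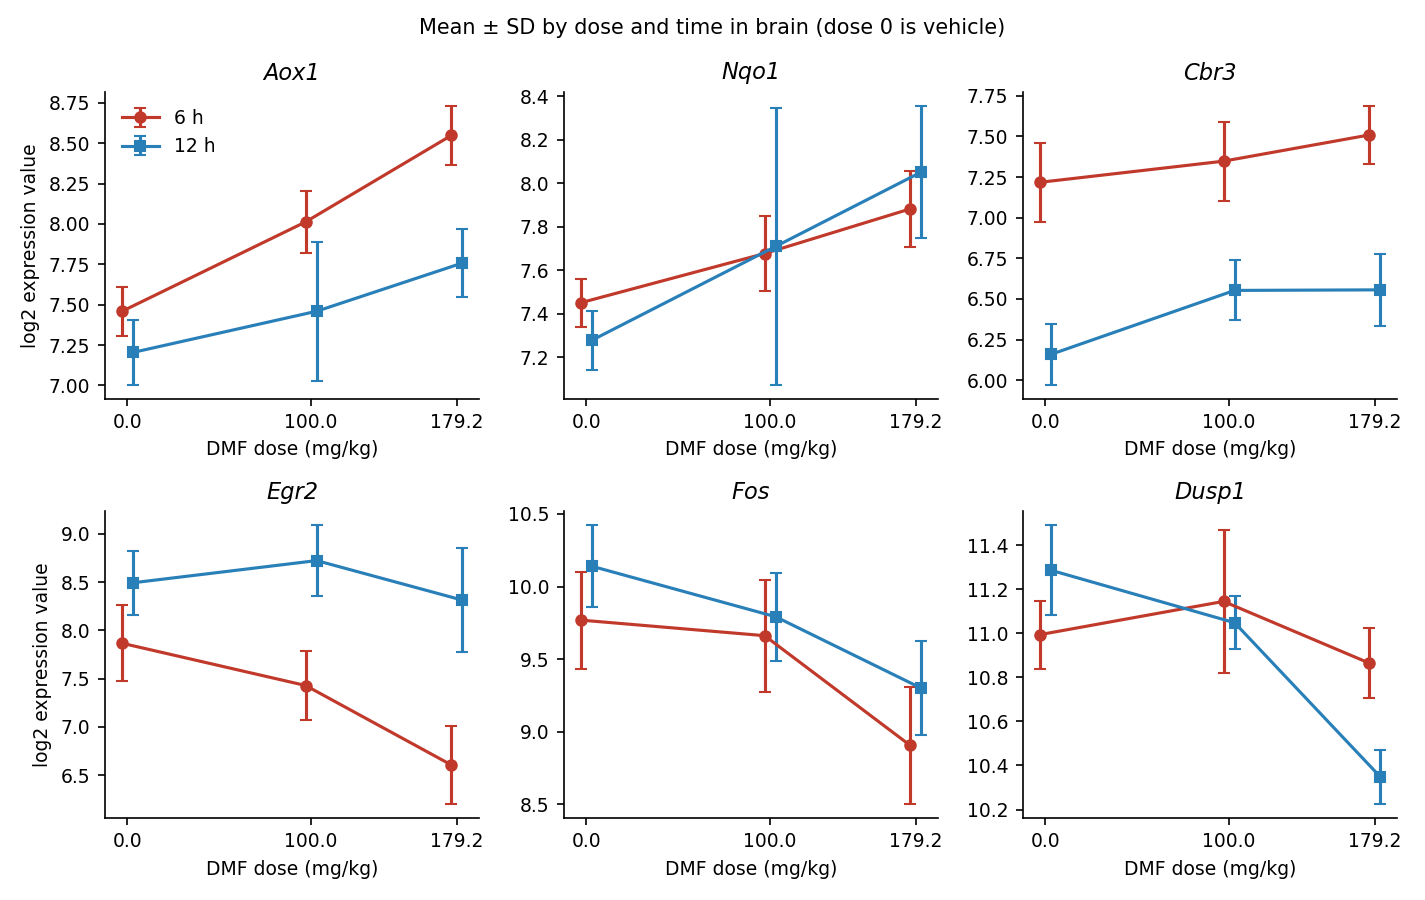
Mean log2 level (± SD, n = 8 arrays, and 7 for 100 mg/kg at 12 h) of 6 genes in brain by DMF dose in mg/kg, where 0 is vehicle, at 6 h (red circles) and 12 h (blue squares). Aox1 is higher at each successive dose at 6 h, and Dusp1 at 179.2 mg/kg is low only at 12 h among the values shown. The lowest value the arrays give is 2.13 at 6 h and 2.18 at 12 h, so levels are read within a time.

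DMF at 179.2 mg/kg was also set against DMF at 100 mg/kg at 6 h, which asks whether the doses differ without using vehicle arrays. At 6 h 1371 genes (8.02 percent) were called, 1098 higher and 273 lower at the higher dose. After a further quantile normalization 1004 were called, and the split turned to 491 higher and 513 lower. With place 716 were called (518 higher, 198 lower), and within the shared places 9 to 12, 271. Aox1 was 0.54 ± 0.11 higher at the higher dose (adjusted p = 0.00212) and 0.75 within shared places. Slc11a1 was 4.95 ± 0.56 at 179.2 mg/kg and 4.02 ± 0.28 at 100 mg/kg (0.94 ± 0.13). Zfp583, with 3.24 ± 0.27 and 2.75 ± 0.06, and Xpo4, with 5.63 ± 0.25 and 6.00 ± 0.11, also differed between 179.2 and 100 mg/kg, with changes of 0.49 and -0.37. Aox1, Slc11a1, Zfp583 and Xpo4 were named for their 6 h change against vehicle, which uses the same 179.2 mg/kg arrays. The naming therefore partly sets their dose differences. The Nqo1 difference of 0.21 ± 0.14 was not called.

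The largest dose differences above the median level were higher at 179.2 mg/kg for Polrmt (0.67), Camk1g, a calmodulin kinase (0.59), Syn3 (0.58), Cpsf1, of the mRNA cleavage complex (0.56), and Zfp692 (0.54). They were lower for Egr2 (-0.82 ± 0.24, adjusted p = 0.0222), Fos (-0.76), Zfp280d (-0.73), Rbbp4, a histone-binding protein (-0.70), and Csmd1 (-0.65). All 10 were called with place. Within places 9 to 12 only Syn3 (0.70) and Rbbp4 (-0.86) were. Against vehicle, DMF at 100 mg/kg gave 2 calls at 6 h (0.0117 percent of all genes), MEF salts 21 (0.123 percent) and DMF with MEF 18 (0.105 percent). These share the vehicle arrays with the higher dose. Cavin2 differed from vehicle by 0.51 with DMF 179.2 mg/kg, 0.11 with DMF 100 mg/kg and 0.58 with DMF and MEF.

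In the other 6 organs at 6 h, levels come from the same animals for the most part and the values are set side by side without a test between organs. Aox1 was higher with DMF than with vehicle by 1.48 in jejunum, 1.54 in kidney, 1.31 in mesenteric lymph node, 1.56 in inguinal lymph node and 1.92 in spleen, all called, and had equal group means of 2.24 in blood. Nqo1, at 0.43 in brain, was higher by 1.91 in jejunum, 1.49 in kidney, 2.60 and 1.76 in mesenteric and inguinal lymph node and 2.05 in spleen. In blood its change was 0.43 and was not called by limma (adjusted p = 0.884). Slc11a1 was called higher in the 5 organs other than blood, by 0.52 to 1.39. Egr2 was called lower in spleen (-0.39) and in none of the other 5. Zfp583 had equal group means of 2.12 to 2.24 in all 6, the same values as Npas4 had there, so no change of Zfp583 could be read. Aox1 in blood stood at the same 2.24. Tra2b was called lower in jejunum (-1.71), kidney (-1.32) and spleen (-1.66). Calls were common in some organs: of 17097 genes, 4267 were called in kidney, 3927 in spleen and 1473 in jejunum. In mesenteric lymph node 67 were called, in inguinal lymph node 40 and in blood 12. The organ values are given without place in the fit, and the part of place in them was not tested.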

How the data were processed

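RNA of brain was hybridised to Affymetrix mouse arrays. The values deposited by the authors are log2 probe-set summaries, and the submitters' processing notes name RMA, GCRMA, R 2.11.1 and limma 3.4.5 without role or order. Brain values at 6 h have a floor of 2.13 that 20.4 percent of values share, and arrays have near-equal medians (5.11 to 5.24). The floor is 2.18 at 12 h, so levels were compared within a time. Of 45141 probe sets 28898 had 1 gene in the platform annotation, 551 had several and 15588 none. For each of 17097 genes the brightest probe set, by mean level, was tested.

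limma 3.58.1 (R 4.3.3, version 1.17.8 of data.table) fitted 1 mean for each of 11 groups to all 86 brain arrays, with moderated variances, 2-sided p-values and Benjamini-Hochberg adjustment over all genes. A gene is called below 0.05. Place is the position of the animal number in runs of 12, with a linear and a squared term per time. The number of arrays limits the precision. Plots were drawn with matplotlib 3.10.9 and tables made with numpy 2.4.6 and pandas 2.3.3 under Python 3.11.15, and the steps were tested on simulated data.

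Named genes are the 12 highest and 12 lowest called genes above the median level, without sex-linked and predicted genes, up to 4 called members of each list, a set of NRF2, metal, glucocorticoid and clock genes and Tra2b, and the 5 highest and lowest of each difference. Mt2 was not tested. The members and lists were chosen with earlier results of these data known. Leaving out arrays by Gabra6 above 5, quantile normalization with place, and the shared-place and 6 h fits of the dose contrast were chosen after seeing the data.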

Additional observations from a re-analysis of the deposited data

Results flagged for a closer look

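The effect of DMF 179.2 mg/kg, taken against vehicle of the same time, differed between 12 h and 6 h by a test of the difference itself for 21 of the genes named here. The count is partly set by the naming rule, which takes the 5 highest and 5 lowest of this difference and genes with a large 6 h effect that enters it. The difference, 12 h minus 6 h on the log2 scale, was -1.01 for Slc11a1, -0.82 for Apold1, -0.81 for Dusp1, -0.77 for Hsd17b11, -0.76 for Olig2 and -0.64 for Hunk. It was -0.56 for Srbd1, -0.54 for Zfp583, -0.53 for Kctd21, -0.48 for Cavin2, -0.46 for Srpk3, -0.43 for Slco1a4, -0.36 for Hcrtr1 and -0.22 for Dnaja1. Positive differences were 0.88 for Ccdc30, 0.69 for Per2, 0.65 for Mical2, 0.51 for Ppip5k1, 0.50 for Irf2, 0.41 for Xpo4 and 0.37 for Rrad.

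Single arrays stood apart from the other 7 of their group for some genes, by a gap of more than 0.526 of the range of the group. Chance gives about 1 such group in 20. The 15 flags come from the named genes in both groups, so some of them are expected by chance. Gabra6 and Cbln3 were named after their values were seen. In the DMF group the highest array was at 6.08 for Gabra6 and at 7.37 for Cbln3 (both animal 72), at 8.04 for Per2, at 5.98 for Fosb, at 4.03 for Osgin1, at 2.25 for Ctsm and at 2.25 for Atf3, and the lowest for Dusp1 was at 10.53. In the vehicle group the highest array was at 8.97 for Fkbp5, at 3.52 for Plekhg2, at 2.49 for Akr1b8 and at 2.47 for Itgax, and the lowest was at 8.69 for Me1, at 5.78 for Olig2 and at 12.35 for Egr1.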

How the results depend on the processing

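For DMF 179.2 mg/kg against vehicle at 6 h, 1231 genes were called. The count was 867 after a further quantile normalization (408 higher, 459 lower), 1094 without dim genes, 1235 with trend and robust variance, 1453 in a fit of only the 2 groups, 1461 with only the 6 h arrays and 1201 with the mean of all probe sets. It was 124 with place as a line and a curve, 93 with a line, 26 within shared places, 144 without the arrays with Gabra6 above 5, 30 without them and with place, and 119 after quantile normalization with place. Leaving out 1 array gave 492 to 1910 calls. The count moved by more than 1.5 times without DMF animals 69 (806), 73 (600) or 74 (492) and without vehicle animals 51 (569), 52 (745), 53 (791) or 55 (1910). The effect at 12 h minus that at 6 h was called for 191 genes and for 521 with place. DMF 179.2 against 100 mg/kg was called for 1371, for 716 with place and for 271 within shared places. Of 67 called genes named here, 26 stayed called with place, 16 within shared places and 13 with place and without the arrays with Gabra6 above 5. The naming partly sets these counts, since those 16 were named for being called with place and within shared places. Of all 1231 called genes, 119 stayed called with place and 19 within shared places. With place and without the arrays with Gabra6 above 5, 27 did. The cause was not tested. No paired analysis was possible because DMF and vehicle animals carry different numbers. The age and sex of the animals, hybridisation dates and levels below the floor limit what can be read.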

Other observations

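Zinc-finger genes were frequent among the genes called higher. Of 301 genes with Zfp symbols, 51 were called higher with DMF and 7 lower, 16.9 percent higher against 5.61 percent of all genes. Their median change was 0.08, against 0.01 over all genes. The counts were 11 and 2 with place in the fit, 28 and 9 after a further quantile normalization, and 13 and 1 without the arrays with Gabra6 above 5. At 12 h, 1 was higher and 5 lower. Genes with Nduf symbols, many of them of respiratory complex I, had 9 of 42 called higher and 0 lower (21.4 percent, median 0.07). In this family 0 were called with place and 0 without the arrays with Gabra6 above 5. Mitochondrial ribosomal protein genes had 9 of 73 called higher and 0 with place. These families were chosen after their values were seen, and no test was run on them.

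Among genes above the median level, those called lower had a longer median genomic span. It was 42.2 kb for 174 genes called lower, 24.7 kb for 663 called higher and 26.6 kb for all 8528 with a RefSeq length. With place in the fit it was 23.2 kb for 18 genes called lower and 28.5 kb for 48 called higher. This is a description with no test.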
